A study of Mus musculus with 6 samples.

Results

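TRIM genes encode proteins with a tripartite motif, which is a RING finger, 1 or more B-boxes and a coiled coil. Members were taken as the protein-coding genes of the deposited expression table whose symbol is Trim followed by digits and an optional letter, and 68 of 54532 genes met that rule. Polyadenylated RNA had been sequenced from granulosa cells of the mouse ovary, which enclose the oocyte in the follicle and make its hormones. There were 3 libraries of cells cultured with cyclophosphamide, a DNA-alkylating chemotherapy drug, for 24 h, and 3 libraries of untreated cells. All 6 are labelled wild type, and the labels give no strain, age or dose. The label of the treated samples names an intraperitoneal injection, whereas the protocol and the design describe drug added to adherent cultures in serum-containing medium.

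In most TRIM proteins the RING finger makes the protein an E3 ubiquitin ligase, which passes ubiquitin from an E2 enzyme to a substrate. The C-terminal domain differs between subfamilies and selects the substrate: PRY-SPRY domains bind proteins such as viral capsids or antibody, PHD-bromodomains read histones, NHL repeats bind RNA or protein, and COS boxes bind microtubules. Several PRY-SPRY members are interferon-inducible antiviral factors, and the PHD-bromodomain members are transcriptional co-regulators.

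The libraries held 16458385 to 17607586 reads, and those of 1 group correlated at 0.987 to 0.992 on log2 values, against 0.898 to 0.909 between groups. The granulosa identity of the cells was checked on 18 markers, of which 16 could be tested, 3 rose and 12 fell. The 18 summed to 1257 to 1586 FPKM (reads scaled to gene length and to library size) in cyclophosphamide and to 3067 to 3268 FPKM in untreated libraries. The largest fall was in Inhbb, an inhibin and activin beta subunit, at 2.88 ± 0.846 FPKM in cyclophosphamide and 87.3 ± 8.05 FPKM in untreated libraries, and the largest rise in Runx1, at 24.7 ± 0.987 FPKM in cyclophosphamide and 8.29 ± 0.456 FPKM in untreated libraries. Inha, the inhibin alpha subunit, averaged 905 ± 158 FPKM in cyclophosphamide and 1984 ± 95.8 FPKM in untreated libraries (SD, n = 3 each), and Foxl2, which maintains granulosa fate, averaged 23.9 ± 1.66 FPKM in cyclophosphamide and 32.5 ± 1.75 FPKM in untreated libraries. The aromatase gene Cyp19a1 held 1 read in the cyclophosphamide and 3 reads in the untreated libraries, and Amh, a marker of growing follicles, held 22 reads in the cyclophosphamide and 16 in the untreated libraries. In these bulk samples, fewer cells of a type and less RNA per cell cannot be told apart.

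Of the 68 TRIM genes, 9 had no read in any library, 17 had reads but too few to be tested, and 42 entered the test. The filter asked for the equivalent of 10 reads in 3 libraries, and no TRIM gene left out held more than 48 reads in all. With cyclophosphamide 25 of the 42 rose and 7 fell at an adjusted p under 0.05 (limma on log2(FPKM + 0.1), Benjamini-Hochberg over all genes tested). Of all 14755 genes tested 69.3% were called, 33.3% as higher and 36.0% as lower, so a call in itself was common. For the TRIM genes the shares were 76.2% called, 59.5% higher and 16.7% lower. Among the 12710 protein-coding genes tested 71.9% were called, 33.5% as higher and 38.4% as lower. The median log2 fold change was 0.34 over the 42 TRIM genes and -0.02 over all genes tested. Most of the rises were below 2-fold: 6 members rose and 5 fell by at least 2-fold. Of all genes 10.0% rose and 16.6% fell that far, and of protein-coding genes 8.88% and 17.3%. The cyclophosphamide and untreated values did not overlap in 35 of the 42, against 73.4% of all genes and 76.5% of protein-coding genes. A count over the genes that passed the filter describes those genes alone. Of these, 3 (Trim17, Trim43a and Trim69) reached 10 reads in every cyclophosphamide library but not in every untreated one, so their entry favoured a rise. Another 2, Trim5 and Trim30a, reached 10 reads in every untreated library and in no cyclophosphamide one, so their entry to the test favoured a fall.

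**Figure D1:**
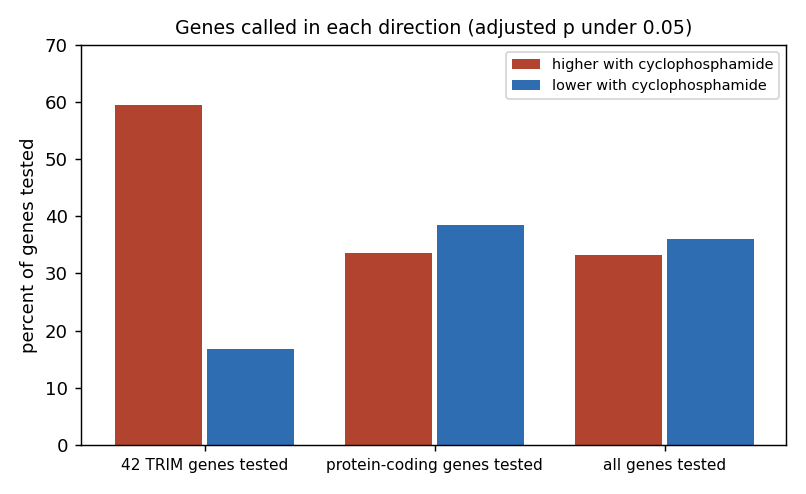
Percent of genes tested that were called higher (red) or lower (blue) with cyclophosphamide, for the 42 TRIM genes, the protein-coding genes and all genes tested. The TRIM genes show 59.5% higher and 16.7% lower, where all genes show 33.3% and 36.0%.

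The summed TRIM level was 541, 545 and 554 FPKM in the cyclophosphamide libraries and 477, 471 and 481 FPKM in the untreated libraries. The groups of 3 sums do not overlap. Trim28, which binds KRAB zinc finger proteins and silences retroelements, was the highest, followed by Trim35 and by Trim44, which lacks a RING finger. Of all members 13 averaged at least 10 FPKM and 33 at least 1 FPKM.

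**Figure D2:**
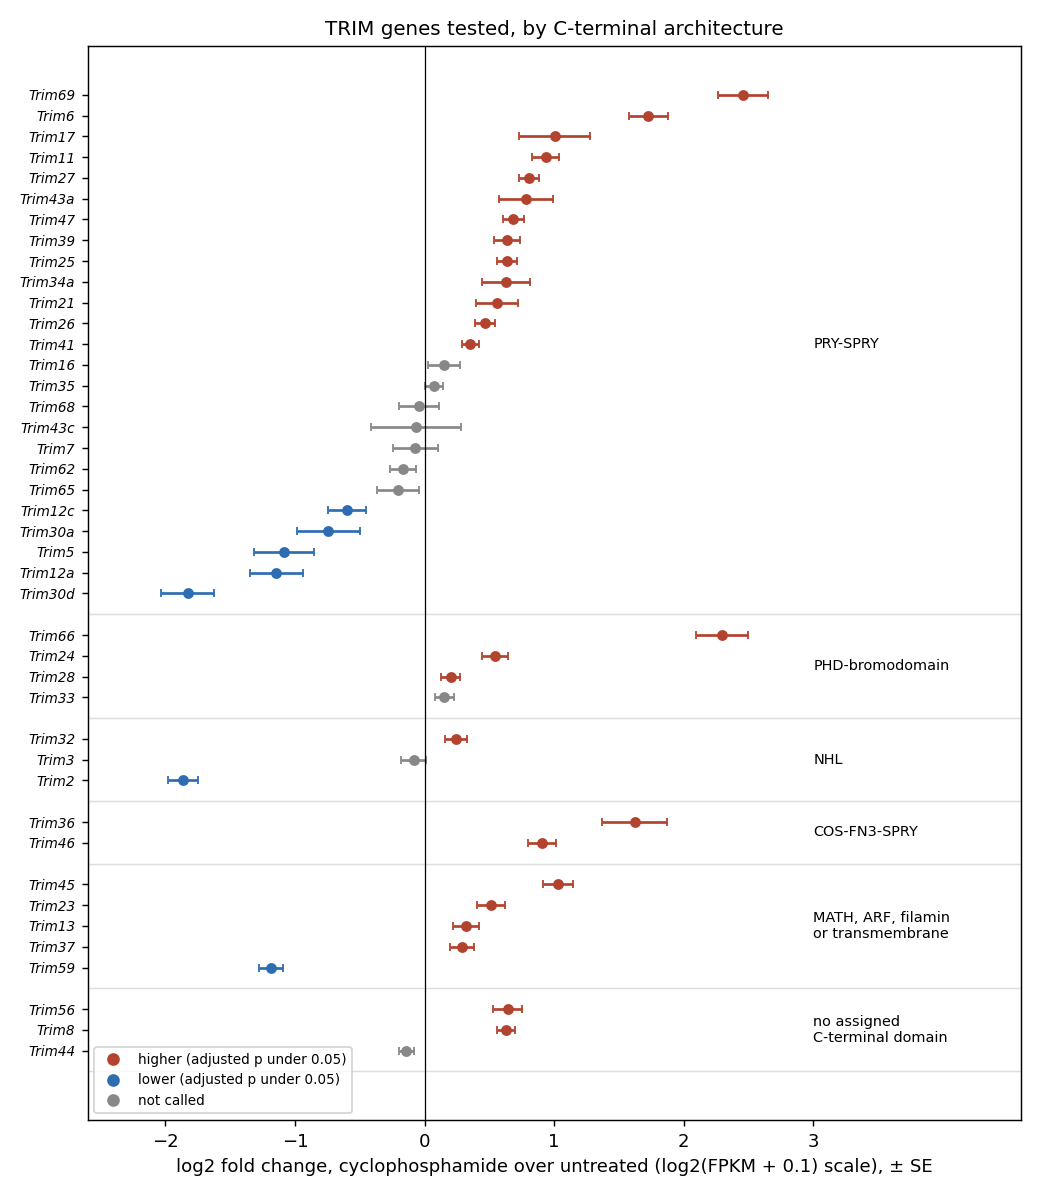
Log2 fold change of cyclophosphamide over untreated with its SE (horizontal axis) for each of the 42 TRIM genes tested, grouped by C-terminal architecture; red rose, blue fell, grey was not called. The PRY-SPRY group runs from Trim69 at 2.46 to Trim30d at -1.83, and outside it Trim2 and Trim59 are the members that fell.

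The PHD-bromodomain members, the TIF1 nuclear co-regulators, rose or were not called. Trim66, a member without a RING finger, had 0.732, 1.02 and 0.749 FPKM in cyclophosphamide libraries and 0.0665, 0.0849 and 0.117 FPKM in untreated libraries. All cyclophosphamide values stood above all untreated ones, at 438 reads against 46 in all. Its log2 fold change was 2.30 ± 0.20 (SE), and this depended on the scale, with 0.75 at a pseudocount of 1 and 3.22 in limma-voom on recovered reads. Trim24, a retinoid receptor cofactor that also ubiquitinates p53, had 6.90, 7.86 and 6.77 FPKM in cyclophosphamide and 5.28, 4.46 and 4.95 FPKM in untreated libraries. The groups were apart, with a log2 fold change of 0.54 ± 0.10 (adjusted p in limma = 0.0017).

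Trim28 had 125, 110 and 120 FPKM in cyclophosphamide and 101, 103 and 104 FPKM in untreated libraries. The cyclophosphamide values were all higher, with a log2 fold change of 0.20 ± 0.07 (adjusted p = 0.036 in limma). That call was lost without cyclophosphamide replicate 1 or 3 or any 1 of the untreated libraries, with no filter, and at adjusted p = 0.14 in limma under upper-quartile scaling. Trim33, which binds SMAD proteins and ubiquitinates SMAD4, averaged 10.6 ± 0.557 FPKM in cyclophosphamide and 9.49 ± 0.248 FPKM in untreated libraries (log2 fold change 0.15 ± 0.07, limma, adjusted p = 0.084), and was called higher under total-reads scaling and in limma-voom.

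Of 17 genes that work with the KAP1 repressor TRIM28, 5 rose and 8 fell (median 0.02), where 33.3% of all genes rose and 36.0% fell. Chd3, a nucleosome remodeller of the NuRD complex, fell to 19.7 ± 0.937 FPKM in cyclophosphamide libraries, against 52.2 ± 4.19 FPKM in untreated libraries, and the NuRD deacetylase Hdac1 to 14.9 ± 0.833 FPKM in cyclophosphamide, against 30.4 ± 1.77 FPKM in untreated libraries. Setdb1, the H3K9 methyltransferase that TRIM28 recruits, had a log2 fold change of 0.32 ± 0.08 (adjusted p in limma = 0.010). Among 9 tested partners of TRIM24 and TRIM33, 6 rose and 1 fell (median 0.56). Rxrb, a retinoid X receptor, had a log2 fold change of 1.14 ± 0.08 and Smad4, the substrate of TRIM33, 0.74 ± 0.07, while the oestrogen receptor gene Esr1 had -1.72 ± 0.20.

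Among the NHL-repeat members the direction differed from gene to gene. Trim2, a ligase studied in neurons, where it acts on neurofilament light chain, had 1.19, 1.12 and 1.08 FPKM in cyclophosphamide and 4.38, 4.17 and 4.59 FPKM in untreated libraries. The values are tight within each group, and the log2 fold change of -1.87 ± 0.11 is the largest fall on this scale among the members (adjusted p in limma = 4.9e-06). Trim2 (ENSMUSG00000027993) lies on the minus strand of chromosome 3 from 84160439 to 84306877, and at 146439 bp has the longest span of the members tested. The next longest had log2 fold changes of -0.14 in Trim44 (107710 bp), 0.54 in Trim24 (95486 bp) and 0.29 in Trim37 (93607 bp). The part of span in the Trim2 result was not tested. Of 7 neuronal markers 5 could be tested and 4 of them fell. The markers summed to between 3.03 and 7.13 FPKM in cyclophosphamide and between 37.98 and 43.7 FPKM in untreated libraries. Most of that sum was Tubb3, at 3.39 ± 1.84 FPKM in cyclophosphamide and 36.7 ± 3.14 FPKM in untreated libraries. The synaptic genes did not move alike: Syn1 held 195 reads in cyclophosphamide and 194 in untreated libraries, Snap25 held 30 and Syt1 1 in cyclophosphamide, against 16 and 6 in untreated libraries. The part of these markers in the Trim2 result was not tested. Trim32, mutated in a human limb-girdle muscular dystrophy, rose by 0.25 ± 0.08 on the log2 scale (adjusted p = 0.031 in limma), a call lost without cyclophosphamide replicate 1 or 3 or untreated replicate 1 or 2, under upper-quartile scaling and with no filter. Trim3 had 7.55, 8.03 and 6.83 FPKM in cyclophosphamide and 7.30, 8.74 and 7.77 FPKM in untreated libraries, groups that overlap. Trim71, a stem cell and embryo gene, had 1 read in all libraries.

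Trim59, which encodes a membrane-anchored member found raised in tumours, had 20.7, 17.7 and 18.2 FPKM in cyclophosphamide and 46.8, 38.4 and 43.6 FPKM in untreated libraries. Every cyclophosphamide value was under every untreated one, and the log2 fold change was -1.18 ± 0.09 (adjusted p in limma = 1.6e-05). It was the member with the largest fall among those above 10 FPKM. Trim59 was grouped with members that carry a MATH, ARF, filamin or transmembrane domain, and the other 4 rose. Trim45, which carries a filamin domain, had 2.64, 2.62 and 2.56 FPKM in cyclophosphamide and 1.16, 1.22 and 1.29 FPKM in untreated libraries, a log2 fold change of 1.03 ± 0.12. Trim23, whose ARF domain hydrolyses GTP, had one of 0.51 ± 0.11. The endoplasmic reticulum ligase Trim13 had 0.32 ± 0.10 (adjusted p in limma = 0.020) and the peroxisome and centrosome ligase Trim37 0.29 ± 0.09 (adjusted p in limma = 0.021). The Trim13 call was lost without cyclophosphamide replicate 1 or untreated replicate 2 or 3, and the Trim37 call without cyclophosphamide replicate 2 or 3 or untreated replicate 1. Both were lost under upper-quartile scaling. Trim13 overlaps the noncoding gene Dleu2 on the other strand by 3108 bp, which held 333 reads in cyclophosphamide and 514 in untreated libraries. No source used here gives the strand setting of the counting, so reads in such overlaps cannot be told apart.

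Both tested members with a COS box, a fibronectin repeat and a SPRY domain rose. Trim46, which bundles microtubules at the start of the axon, had 5.96, 6.33 and 6.09 FPKM in cyclophosphamide and 2.87, 3.61 and 3.20 FPKM in untreated libraries. The log2 fold change was 0.91 ± 0.11 (adjusted p in limma = 0.00014), while 4 of the 5 neuronal markers tested fell, whose part in this result was not tested. Trim46 shares 344 bp with Krtcap2 on the opposite strand, whose 4220 and 3063 reads in cyclophosphamide and untreated libraries exceed the 1201 and 622 reads of Trim46. Trim36, named here after its values were seen, had 0.889, 0.656 and 1.04 FPKM in cyclophosphamide and 0.177, 0.154 and 0.317 FPKM in untreated libraries. Its log2 fold change was 1.62 ± 0.25, and 0.61 at a pseudocount of 1. Of the muscle RING finger genes, Trim55 and Trim63 had no read. Trim54 had 9 reads in cyclophosphamide libraries and 0 in untreated ones. Against a floor of 3 reads over the untreated group the ratio was 3.04, with the 9 reads taken as exact. Of 10 striated muscle markers 5 were at 0 in all libraries. Myh7 and Acta1 each held 7 reads in cyclophosphamide and 0 in untreated libraries, and Des, the one marker that could be tested, held 83 reads in cyclophosphamide and 91 in untreated libraries. The part of these markers in the Trim54 reads was not tested.

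Among members with no assigned C-terminal domain, Trim8 and Trim56 rose. Trim8, which stabilises p53 and binds SOCS1, had 36.8, 37.3 and 39.0 FPKM in cyclophosphamide and 22.5, 26.1 and 24.5 FPKM in untreated libraries. No untreated library reached the lowest cyclophosphamide value, and the log2 fold change was 0.63 ± 0.07 (adjusted p in limma = 0.00011). Trim56, a ligase linked to STING signalling, had 9.59, 12.3 and 12.04 FPKM in cyclophosphamide and 6.63, 7.28 and 7.67 FPKM in untreated libraries (log2 fold change 0.64 ± 0.11). Trim44 had 34.4, 35.9 and 35.6 FPKM in cyclophosphamide and 38.4, 38.1 and 40.1 FPKM in untreated libraries. These groups do not overlap, yet the log2 fold change of -0.14 ± 0.06 missed the threshold (adjusted p in limma = 0.053) and passed it as lower under upper-quartile scaling.

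PRY-SPRY members were the most numerous, with 25 tested. Trim17, Trim43a and Trim69 among them entered the test through their cyclophosphamide reads, and Trim5 and Trim30a through their untreated reads. Of the 25 members, 13 rose, 5 fell and 7 were not called, where 33.3% of all genes rose and 36.0% fell. Among those that rose, Trim25, which ubiquitinates the RNA sensor RIG-I and assists the antiviral protein ZAP, had 26.8, 31.0 and 28.9 FPKM in cyclophosphamide and 18.1, 17.9 and 19.6 FPKM in untreated libraries. The groups were well apart, with a log2 fold change of 0.64 ± 0.07 (adjusted p in limma = 0.00013). Trim27, a ligase that acts with the retromer and WASH complexes on endosomes, had 23.1, 23.9 and 24.5 FPKM in cyclophosphamide and 13.5, 14.8 and 12.5 FPKM in untreated libraries (log2 fold change 0.81 ± 0.08). Trim11 had 13.8, 17.1 and 17.4 FPKM in cyclophosphamide and 7.83, 8.45 and 8.79 FPKM in untreated libraries (0.93 ± 0.10). In each of these genes cyclophosphamide values lay above all untreated ones.

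Trim39, which stabilises the apoptosis modulator MOAP1, had a log2 fold change of 0.64 ± 0.10 and Trim47 one of 0.68 ± 0.08. Trim47 and Trim65, which acts on the RNA sensor MDA5, lie on the same strand and overlap by 5365 bp, and Trim65 was not called (-0.20 ± 0.16). Trim21, the cytosolic Fc receptor that directs antibody-coated virus to the proteasome, had 2.70, 2.09 and 2.99 FPKM in cyclophosphamide and 1.55, 1.90 and 1.69 FPKM in untreated libraries. Its log2 fold change was 0.56 ± 0.16 (adjusted p in limma = 0.015), and the call was lost without cyclophosphamide replicate 3 or untreated replicate 1. Trim35 was the highest of this group and had 84.9, 96.5 and 90.4 FPKM in cyclophosphamide and 87.2, 86.5 and 83.7 FPKM in untreated libraries, values that overlap.

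The other PRY-SPRY members moved less or were low. Trim26 had 15.1, 15.8 and 17.5 FPKM in cyclophosphamide and 10.98, 11.8 and 12.1 FPKM in untreated libraries (log2 fold change 0.47 ± 0.08), and Trim41 had a log2 fold change of 0.35 ± 0.06. The groups of Trim26 do not overlap. Trim41 shares 31 bp with Rack1 on the opposite strand, which held 82920 reads in cyclophosphamide and 64177 in untreated libraries. Rack1 was called higher, with a log2 fold change of 0.34, and Trim41 held 5242 reads in all. Trim17 held 68 reads in cyclophosphamide and 24 in untreated libraries, and Trim43a 41 in cyclophosphamide and 19 in untreated libraries. They were called higher at 1.003 ± 0.28 and 0.78 ± 0.21, calls that were lost with no filter. Both entered the test through their cyclophosphamide reads, which favoured a rise. Trim17 overlaps Hist3h2a on the same strand by 2146 bp, a histone gene that fell. It also overlaps the pseudogene Gm12260 on that strand by 411 bp, which held 18 reads in cyclophosphamide and 0 in untreated libraries. The noncoding gene 2310058D17Rik overlaps Trim17 on the other strand and was not called. Trim43a shares 45.8% of its stretches of 50 bases with other Trim43 genes. Trim16, Trim62, Trim68, Trim7 and Trim43c were not called, with log2 fold changes between -0.17 and 0.15.

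Trim69 was also named after its values were seen. It had 16, 16 and 17 reads in the cyclophosphamide libraries and 0, 0 and 1 in the untreated libraries. Its entry to the test, through the cyclophosphamide reads, favoured a rise. The ratio of 49 reads to 1, scaled to total reads, was 49.7 with an exact 95% interval of 8.51 to 2002 that covers counting error only. The gene is known mainly from testis, and its level was 0.503 ± 0.0263 FPKM in cyclophosphamide libraries (SD, n = 3). Of 11 oocyte markers 3 could be tested and 2 of them, Gdf9 and Ooep, rose, while Ddx4 was not called. Gdf9 averaged 2.40 ± 0.28 FPKM in cyclophosphamide and 0.40 ± 0.02 FPKM in untreated libraries. The cyclophosphamide reads of Bmp15 and Zp1 all lay in replicate 3. The 11 summed to 3.33 to 4.95 FPKM in cyclophosphamide and to 0.936 to 1.37 FPKM in untreated libraries, with Zp2 at 9 reads in cyclophosphamide and 0 in untreated libraries. Their part in the results for Trim69, Trim66 and Trim36 was not tested.

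**Figure D3:**
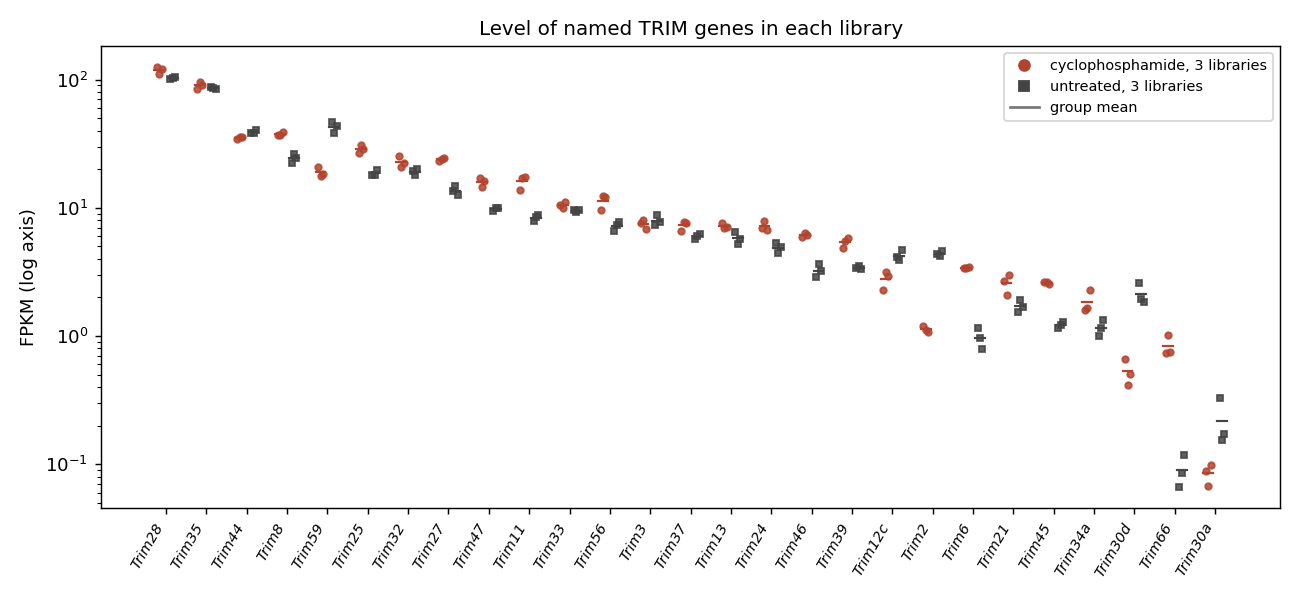
FPKM of the named TRIM genes (log axis) in each of 3 cyclophosphamide (red circles) and 3 untreated (dark squares) libraries, with group means as lines, ordered by mean level. Trim44, Trim59, Trim12c, Trim2, Trim30d and Trim30a have the cyclophosphamide values below the untreated ones (Trim44 was not called), and Trim28 at 125, 110 and 120 FPKM is at the top.

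The 5 PRY-SPRY members that fell are neighbours on chromosome 7. The segment from 104218793 to 104507849 (coordinates as deposited, read as GRCm38) holds 10 protein-coding genes, and all 10 are TRIM genes. Mouse Trim30 genes and the relatives of primate TRIM5, which binds retroviral capsids, belong to this cluster. Of its members 7 could be tested. The 2 tested members on the plus strand, Trim6 and Trim34a, rose, and the 5 tested members on the minus strand, Trim5, Trim12a, Trim12c, Trim30a and Trim30d, fell. Trim5 and Trim30a are the members that entered the test through their untreated reads, and Trim12a, Trim12c and Trim30d held at least 10 reads in every library. Strand was looked at after the values were seen, and this count was not tested.

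Trim6, whose human counterpart makes free ubiquitin chains that activate the kinase IKK-epsilon, had 3.36, 3.40 and 3.45 FPKM in cyclophosphamide and 1.15, 0.960 and 0.798 FPKM in untreated libraries. The log2 fold change of 1.73 ± 0.15 (adjusted p in limma = 2.7e-05) was the largest rise among members that averaged at least 1 FPKM. Trim34a had 1.59, 1.66 and 2.30 FPKM in cyclophosphamide and 0.991, 1.15 and 1.32 FPKM in untreated libraries (0.63 ± 0.18, limma, adjusted p = 0.016). That call was lost without cyclophosphamide replicate 3 or untreated replicate 1.

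Trim30d had 0.663, 0.416 and 0.508 FPKM in cyclophosphamide and 2.59, 1.95 and 1.84 FPKM in untreated libraries. The groups are far apart (log2 fold change -1.83 ± 0.20, limma, adjusted p = 9.9e-05), and the value was -1.03 at a pseudocount of 1. Trim12c, which in mouse promotes interferon and NF-kappa-B signalling, had 2.27, 3.15 and 2.93 FPKM in cyclophosphamide and 4.11, 3.91 and 4.70 FPKM in untreated libraries (-0.60 ± 0.14, limma, adjusted p = 0.0064). Trim12a had a log2 fold change of -1.14 ± 0.20, and -0.56 at a pseudocount of 1.

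The remaining members of the cluster were low. Trim30a, which in mouse restrains NF-kappa-B signalling, held 18 reads in cyclophosphamide and 45 in untreated libraries. Its log2 fold change was -0.74 ± 0.24 (adjusted p in limma = 0.025), the call was lost without cyclophosphamide replicate 1 or 2 or untreated replicate 1, and the value was -0.16 at a pseudocount of 1. Trim5 held 8 reads in cyclophosphamide and 37 in untreated libraries (log2 fold change -1.09 ± 0.23, with -0.20 at a pseudocount of 1 and -2.23 in limma-voom). Trim34b, with 9 reads in cyclophosphamide and 11 in untreated libraries, was not tested, nor were Trim30b, with 1 read in all, and Trim30c, with none. Copies in the cluster are alike, which makes the division of reads between them uncertain. Of the stretches of 50 bases in Trim12c transcripts 24.2% also occur in Trim5, 39.8% of those of Trim34a occur in Trim34b, and 6.39% of those of Trim30d occur in Trim30a.

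**Figure D4:**
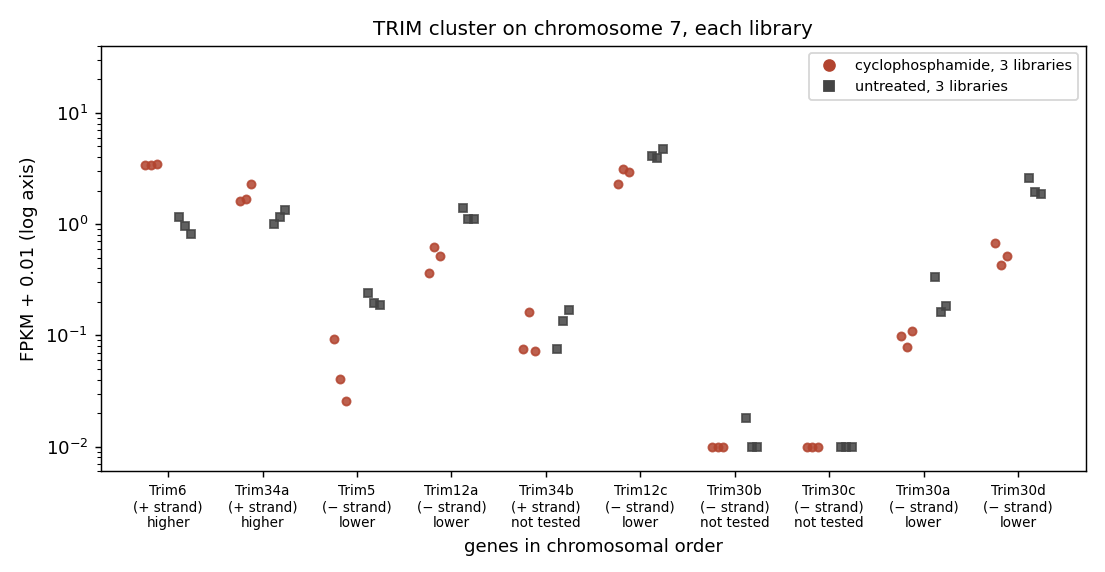
FPKM + 0.01 (log axis) of the 10 TRIM genes of the chromosome 7 cluster in chromosomal order, in 3 cyclophosphamide (red circles) and 3 untreated (dark squares) libraries; the strand and the call stand under each name. Trim6 and Trim34a on the plus strand lie higher with cyclophosphamide, and the 5 called genes on the minus strand lie lower.

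Promoters of the members were searched for 14 motif patterns in both orientations, from 250 bases before to 50 after each RefSeq gene start (GRCm38.p6). The pattern shown was chosen from the 14 after the matches were seen, and its shares were given no test. Of the 68 members 53 have an entry. The interferon-stimulated response element was searched as GAAANNGAAA, and 3.99% of 27025 genes hold it. It occurs in 9 of the 53 members. By call, 6 of the 7 members that fell hold it, 3 of 21 that rose and 0 of 4 not called. The 6 include Trim5 and Trim30a, whose entry to the test favoured a fall, so nothing is read from this tally. Over all tested genes with a promoter entry, 40.4% of the 359 genes that hold these letters were lower and 37.1% of the 10114 that do not. The windows are shown because they set the members that fell beside those that rose with the same element; capitals mark the element, in either orientation, and each is printed on its own gene's strand.
Trim30d: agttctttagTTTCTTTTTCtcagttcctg
Trim30a: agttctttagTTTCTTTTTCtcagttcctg
Trim30a, second start: ttgtttttagTTTCTTTTTCtcagttcctg
Trim12a: agagttgtggTTTCTGTTTCatttccagag
Trim12c: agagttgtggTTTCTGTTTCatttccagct
Trim5: agagttgtggTTTCTGTTTCatttccagag
Trim2: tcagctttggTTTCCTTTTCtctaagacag
Trim34a: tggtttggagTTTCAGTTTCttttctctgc
Trim21: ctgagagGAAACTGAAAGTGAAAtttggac
Trim26: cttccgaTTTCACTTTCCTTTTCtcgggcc

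On the minus strand, the windows lie at chr7:104507871-104507900 for Trim30d, chr7:104465210-104465239 for Trim30a, chr7:104315466-104315495 for Trim12a, chr7:104353359-104353388 for Trim12c, chr7:104288136-104288165 for Trim5, chr3:84212791-84212820 for Trim2 and chr7:102565447-102565476 for Trim21. On the plus strand they lie at chr7:104244457-104244486 for Trim34a and chr17:36836979-36837008 for Trim26. The first window of Trim30a and that of Trim30d have the same letters, as do those of Trim5 and Trim12a, and Trim30a has another window at a second RefSeq start, at chr7:104446104-104446133. The 6 members that fell thus hold 5 different windows, some of them near copies. The window of Trim12c differs from that of Trim12a only at its end, and the second of Trim30a from its first only before the element. The window of Trim2 belongs to a RefSeq start inside the gene. A shorter form of the element, TTCNNTTTC, overlaps it and was found in 12 members (9.76% of genes). TGCGCA, the NRF1 half-site, was found in 9 members (8.79% of genes), as many as the element shown. Of these 9, 7 rose, while of the 32 tested members with an entry 21 rose. Over all tested genes with an entry, 37.0% of the 1660 with TGCGCA were higher and 32.9% of the 8813 without it. This count was not tested. The TEAD site GGAATG was in 10 (16.6% of genes), the antioxidant response element in 18 (30.8%) and the p53 half-site in 6 (9.55%). The ATF4 element TGATGNAA was in 4 (4.51%), the E-box CACGTG in 3 (8.09%) and the cyclic AMP element TGACGTCA in 2 (2.03%). The YY1 site AAGATGGC was in 1 member (3.19%), and so was the E2F site, TTTCCCGC or TTTGGCGC (1.80%). The NF-kappa-B site (0.281% of genes), the CArG box (1.81%) and the full p53 site, a pair of half-sites at most 13 bases apart (0.074%), had no match in a member. Trim21 and Trim26, a ligase that acts on nuclear IRF3, hold 2 overlapping matches each.

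Of 15 tested genes of RNA and DNA sensing, which antiviral TRIM ligases act on, 7 rose and 5 fell (median 0.19). Zc3hav1, which encodes ZAP, the partner of TRIM25, rose to 31.1 ± 3.45 FPKM in cyclophosphamide libraries, against 11.8 ± 0.338 FPKM in untreated libraries, and the ligase gene Traf6 to 13.3 ± 0.546 FPKM in cyclophosphamide, against 5.86 ± 0.182 FPKM in untreated libraries. Ddx58, which encodes RIG-I, averaged 1.48 ± 0.163 FPKM in cyclophosphamide and 4.04 ± 0.105 FPKM in untreated libraries. Of 14 genes of interferon receptor signalling 4 rose and 5 fell (median 0.03). These counts stand beside 33.3% higher and 36.0% lower over all genes. The receptor genes Ifngr1 (log2 fold change 0.84 ± 0.08) and Ifnar2 (0.74 ± 0.07) rose, and the transcription factor gene Irf1 (-1.49 ± 0.16) fell. Of 15 leukocyte markers 4 could be tested, of which 3 rose (Csf1r, Cd14 and Cd68) and 1 fell (Lyz2). Markers not tested held 39 reads in cyclophosphamide and 75 in untreated libraries together. The 15 summed to 11.7 to 15.7 FPKM in cyclophosphamide and to 7.70 to 8.78 FPKM in untreated libraries, the pan-leukocyte gene Ptprc held 7 reads in cyclophosphamide and 9 in untreated libraries, and the T cell genes Cd3e and Cd3d were at 0. Their part in the results for the interferon-related TRIM genes was not tested.

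Among the 17 members with reads below the filter, most held few reads in either group. Trim15 held 20 reads in cyclophosphamide and 28 in untreated libraries. Trim72, the membrane repair protein of muscle, held 22 reads in cyclophosphamide (13, 3 and 6) and 5 in untreated libraries (0, 4 and 1). These groups overlap. Trim29 held 11 reads in cyclophosphamide and 1 in untreated libraries, a ratio of 11.2 with an exact 95% interval of 1.62 to 480. Trim50, Trim61, Trim14, Trim80, Trim67, Trim38, Trim10, Trim75, Trim31 and Trim9 held at most 25 reads in all. Trim43b, Trim60, Trim52, Trim42, Trim58 and Trim40 had no read, as did Trim30c, Trim55 and Trim63.

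TRIM family genes that carry other symbols were measured as well. Mid2, a microtubule-binding paralog of the Opitz syndrome gene Mid1, averaged 5.31 ± 0.216 FPKM in cyclophosphamide and 2.49 ± 0.168 FPKM in untreated libraries (log2 fold change 1.06 ± 0.10, limma, adjusted p = 4.1e-05). Pml, which builds nuclear bodies, rose by 0.22 ± 0.07 on the log2 scale, and the muscle gene Cmya5 by 1.40 ± 0.37. The Pml call was lost under upper-quartile scaling and without cyclophosphamide replicate 3 or untreated replicate 1 or 2. Mid1 itself had -0.35 ± 0.14 and missed the threshold (adjusted p in limma = 0.052). Of 21 ubiquitin, E1 and E2 genes 6 rose and 9 fell (median -0.10), where 33.3% of all genes rose and 36.0% fell. The E2 gene Ube2l6 and the E1 gene Uba7, which attach the ubiquitin-like ISG15, fell by 2.23 ± 0.21 and by 1.50 ± 0.23 on the log2 scale. Ube2n, the E2 of lysine-63 chains used by several TRIM ligases, fell by 0.54 ± 0.07, and Ube2l3 fell by 0.72 ± 0.07.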

How the data were processed

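Despite a file name that speaks of raw counts, the deposited table holds FPKM values that the authors had already scaled. Tools listed in the submitters' processing notes are CASAVA and HISAT2 (version 2.0.5), with GRCm39 as the build; no counting tool is named in them. Of 54495 gene IDs shared with GENCODE M21 (GRCm38), 98.3% had equal coordinates, so coordinates are read as GRCm38. FPKM times the deposited gene length gave whole multiples of 1 step (within 0.01 of a read) for 100% of values, and these gave reads per gene.

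Groups follow the sample titles. No label ties replicates to separate cultures, so the p-values reflect variation among these libraries only, and it may be technical. A gene was tested if at least 3 libraries each held 10 reads, scaled to library size, and its total was at least 15. This scaled form of the filter was taken after a form on unscaled reads had been tried, because it gives the gene count of an earlier processing of these data. The test was limma (version 3.58.1, R version 4.3.3), two-sided, with a mean-variance trend, on log2(FPKM + 0.1), a scale that understates changes of low genes. The fit was tested on simulated data, in which far fewer genes changed than were called here, so this checks the code alone.

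The members and lists were chosen with earlier results of these data known. Members were named for the largest changes (up to 12 each way, called, at a mean of at least 1 FPKM, with groups that do not overlap), for the 3 highest levels or from a panel. In each partner list the 2 called genes with the smallest p-values were named. Any other gene in the text, such as Trim5, Trim12a, Trim17, Trim23, Trim36, Trim43a, Trim54, Trim69, Ddx58 or Irf1, was chosen after its values were seen. Marker lists for other cell types were also read. Of endothelial genes 1 of 3 tested rose, of theca and stroma genes 1 of 5 rose and 2 fell, of surface epithelial genes 4 of 5 fell, and the 1 erythroid and the 1 striated muscle gene tested were not called. Some single genes of the lists are not reported here. Intervals cover counting error only, and the floor used for Trim54 leaves out the counting error of its cyclophosphamide reads.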

Additional observations from a re-analysis of the deposited data

How the results depend on the processing

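Across 17 alternatives 20 to 26 TRIM genes were called higher and 5 to 9 lower, and 23 of the 32 called members had the same call wherever they were tested. No called member changed sign. Leaving out 1 library gave 20 to 24 higher and 6 to 7 lower. Upper-quartile scaling, which moves the median of all genes to -0.10, gave 21 higher and 9 lower and a TRIM median of 0.25, against 0.34. With no filter 23 were higher and 6 lower, since Trim28, Trim32, Trim43a, Trim17 and Trim30a were not called and Trim29 and Trim54 were called higher. A filter on unscaled reads, added after seeing the data, tested 14885 genes and again gave 25 higher and 7 lower. RNA and DNA sensing genes called lower numbered 3 with no filter, against 5. Among TRIM genes with other symbols the number higher was 2 to 3, and 1 (Mid1) was called lower at a pseudocount of 0.5 or 1, under the stricter filter, under upper-quartile scaling, in limma-voom and with protein-coding genes only, and 0 to 1 with 1 library left out. The cause was not tested for any of these. Some uncalled members changed sign: Trim35 had -0.0076 under upper-quartile scaling and Trim68 had 0.0011 under total-reads scaling. With 1 library left out Trim43c ranged from -0.47 to 0.22, Trim68 from -0.13 to 0.10 and Trim7 from -0.17 to 0.057. Deviations from the group means correlated at -0.077, 0.007 and -0.023 between same-numbered libraries. Between differently numbered libraries they correlated at -0.094 to 0.119. These values show no pairing by number, but with 3 libraries in each group they cannot exclude a pairing. The fit with the replicate block called 24 higher and 7 lower, and Trim28 was not called (limma, adjusted p = 0.076). Of the 26 members not tested 9 had no read, and at this depth low expression and none were not separated.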
